A study of Mus musculus with 10 samples.

Results

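The matrix metalloproteinases (MMPs), the disintegrin metalloproteinases (ADAMs), their secreted relatives with thrombospondin repeats (ADAMTS) and the tissue inhibitors of metalloproteinases (TIMPs) were followed in mouse intestinal organoids with and without IκBα. Members were all gene symbols in the array's probe-to-gene table that consist of Mmp, Timp, Adam or Adamts and a number, with at most 1 letter after it. This gave 75 genes of 19505, each with 1 probe set: 4 TIMPs, 21 MMPs, 18 ADAMTS genes and 32 ADAMs. The KO group held 5 arrays of organoids labelled IκBα KO and the WT group 5 arrays of organoids labelled IκBα WT. IκBα, encoded by Nfkbia, holds NF-kB factors in the cytoplasm. All samples carry the same P6 mark, whose meaning the labels do not give. No label gives the strain, sex, age or deleted part of the gene, or says how many animals or cultures were sampled. The p-values therefore weigh a difference against the spread of these 10 arrays alone, and that spread may be technical.

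MMPs and ADAMTS enzymes are zinc proteases that cut proteins of the matrix around cells, and membrane-anchored ADAMs cut the outer parts of surface proteins from the cell. They are made as inactive precursors, and TIMPs block the active site of the mature enzymes. In the mouse gut Mmp7 is best known from Paneth cells, where it activates α-defensins, while many other members are known from fibroblasts and immune cells. An array reads RNA and gives no measure of enzyme activity.

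Levels are the deposited log2 values, changes are KO minus WT, and a gene passed when limma's Benjamini-Hochberg adjusted p over all 19572 named probe sets was under 0.05. Nfkbia fell to 5.06 ± 0.31 in KO, against 9.19 ± 0.38 in WT (SD, n = 5 each). The Y-linked genes Eif2s3y, Uty and Kdm5d were also lower in KO, with changes of -5.20, -4.47 and -2.42 (limma, adjusted p at most 7.72e-05), so Y-linked signal moved with every difference given here, and its part was not tested. The array medians lay between 6.53 and 6.67, and correlations over probe sets (Pearson's r, a description only) were 0.968 to 0.988 among KO arrays, 0.848 to 0.905 between groups and 0.959 to 0.993 among WT arrays. The medians of the 5222 negative control probe sets were 4.30 to 5.10, which marks where small signals flatten. Where the mean of the dimmer group lay within this range, as for Nfkbia in KO, the size of a change is a lower bound. The 63 probe sets for ERCC spike-in RNA had a median change of -0.12 and differed by at most 0.55 in size, and the 8 other spike-in and hybridisation controls changed by -0.85 to -0.10. Of 8 markers listed for epithelium, 3 rose, 3 fell and 2 did not pass, and their summed level off the log scale was 23332 to 27082 in KO and 21023 to 23544 in WT. Those that rose were Krt18 by 1.43, Cdh1 by 0.45 and Krt8 by 0.43. Those that fell were the intestinal factor Cdx2 (-2.16), the microvillus protein Vil1 (-1.03) and Cldn7 (-0.46). Cdx2 and Vil1 remained well above the negative control medians, at 8.53 and 10.11 in KO.

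Members moved in 1 direction only among those that passed. In KO organoids 14 of the 75 genes rose, none fell and 61 did not pass (limma, adjusted p under 0.05). No member passed as lower in KO, and 1 was lower at an unadjusted p under 0.05. Among all tested probe sets 26.7% changed, 15.0% higher and 11.7% lower, against 18.7% of members, all higher, so the share of members that rose is near the background. Of the members, 12 rose by more than 2-fold, where 6.66% of all probe sets did. For 14 members the KO values lay wholly above the WT values, which held for 12.3% of all probe sets, and no member had KO values wholly below, which held for 9.07%. Only 5 members had WT signal above the 95th percentile of the negative controls (7.17 to 7.77) on every WT array. In the others a fall could be missed, so the absence of falls says little about them. The median change of the members was 0.08, against -0.01 over all probe sets. The 14 that rose were Timp1, Timp2, Timp3, Mmp7, Mmp11, Mmp13, Mmp14, Mmp19, Mmp28, Adam8, Adam9, Adam17, Adamts1 and Adamts9. Of these, 11 had WT signal that was not above the 95th percentile of the negative controls (7.17 to 7.77) on every array, so the sizes of their rises may be understated and are given on the log2 scale alone, and their order is not exact. The exceptions were Mmp7, Adam9 and Adam17. In Timp1, Mmp11, Mmp13, Mmp19 and Adamts9 the KO signal was not above that percentile on every KO array either, with KO means of 6.45 to 6.90. In bulk RNA, a larger share of cells that use a gene and more RNA per cell cannot be told apart.

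**Figure D1:**
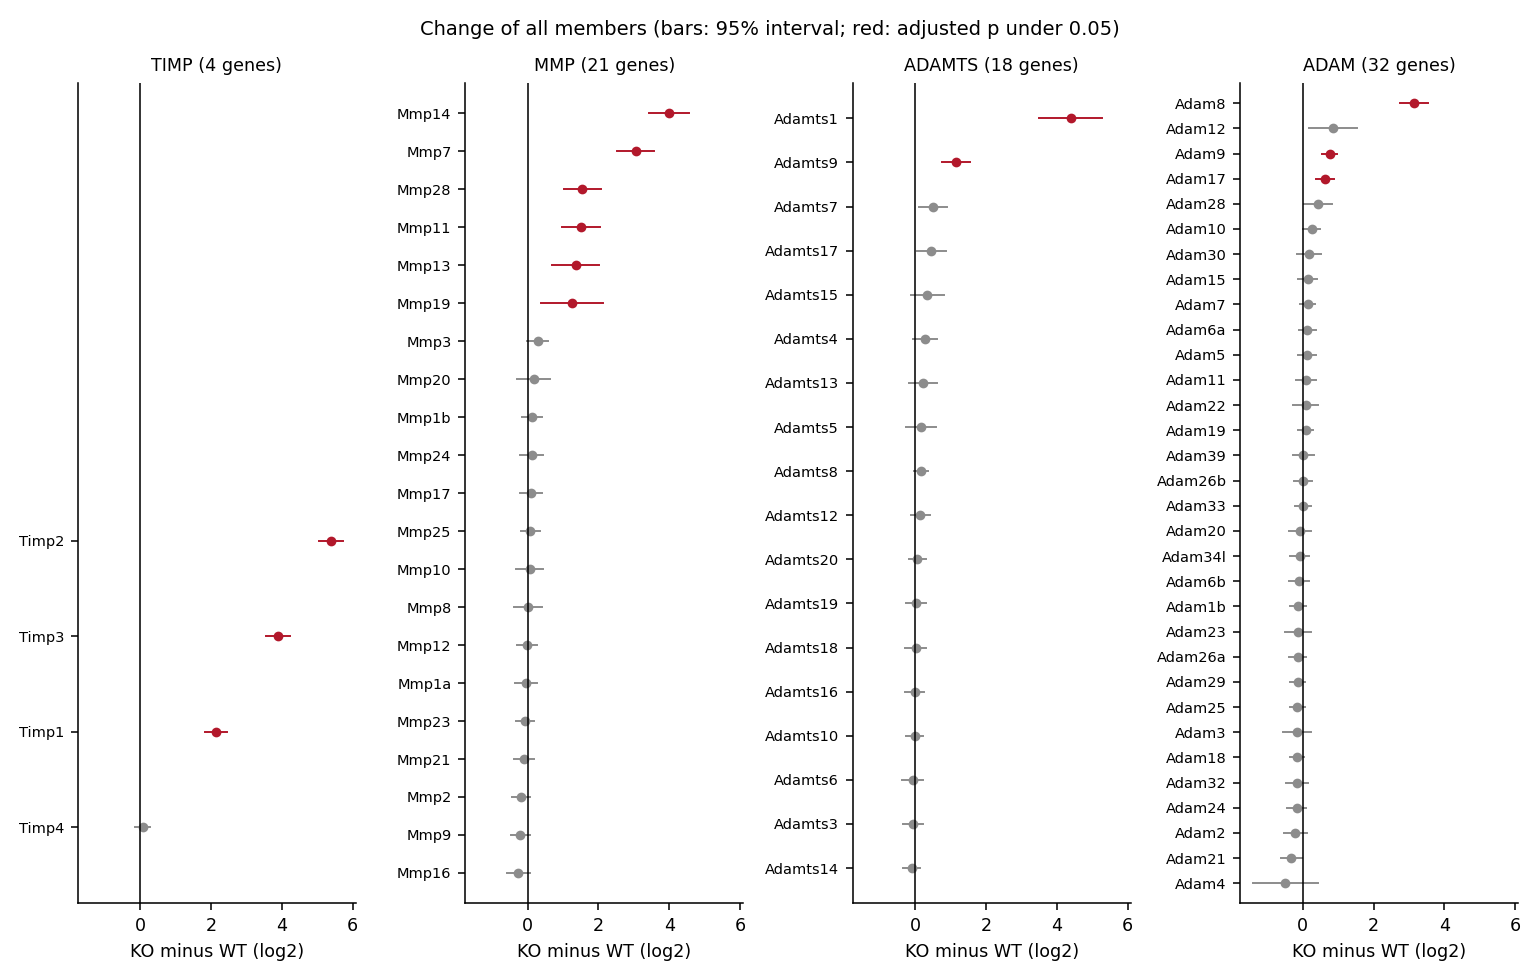
Change of each of the 75 members, KO minus WT on the log2 scale, in panels for TIMPs, MMPs, ADAMTS genes and ADAMs. Points are limma estimates, bars are 95% intervals, and red marks the 14 genes past the threshold, all to the right of 0.

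Of the 4 inhibitors, 3 rose in KO organoids and 1 did not pass. Timp2, which blocks MMPs and also docks the Mmp2 precursor on Mmp14, was at 10.90, 10.57, 11.21, 11.03 and 11.44 in KO arrays 1 to 5, against 5.73, 5.76, 5.76, 5.35 and 5.63 in WT arrays 1 to 5. The lowest KO array stood far above the highest WT array. Timp2 rose by 5.38 ± 0.16 (standard error; limma, adjusted p = 5.09e-10).

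Timp3, which binds to the matrix and inhibits Adam17 as well as MMPs, was at 10.25, 10.52, 10.37, 9.83 and 9.71 in KO, against 6.32, 6.17, 6.29, 6.28 and 6.14 in WT. The WT arrays were tightly grouped and none came near a KO array. The rise was 3.90 ± 0.16 (standard error; limma, adjusted p = 5.89e-09). Timp1, a soluble inhibitor that binds the Mmp9 precursor and is encoded on the X chromosome, was at 6.74, 6.70, 7.25, 6.80 and 7.03 in KO, against 4.86, 4.41, 4.97, 4.76 and 4.76 in WT. The groups did not overlap, and the WT mean of 4.75 lay within the negative control medians, so the rise of 2.15 (standard error 0.14; limma, adjusted p = 3.76e-07) is a lower bound.

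Timp4, known mainly from heart and brain, was at 4.88, 4.92, 4.79, 4.81 and 4.99 in KO, against 4.89, 4.67, 4.95, 4.88 and 4.65 in WT. The groups overlapped almost completely, at the level of the negative controls. The change was 0.07, with a 95% interval of -0.14 to 0.29 (limma, adjusted p = 0.657).

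**Figure D2:**
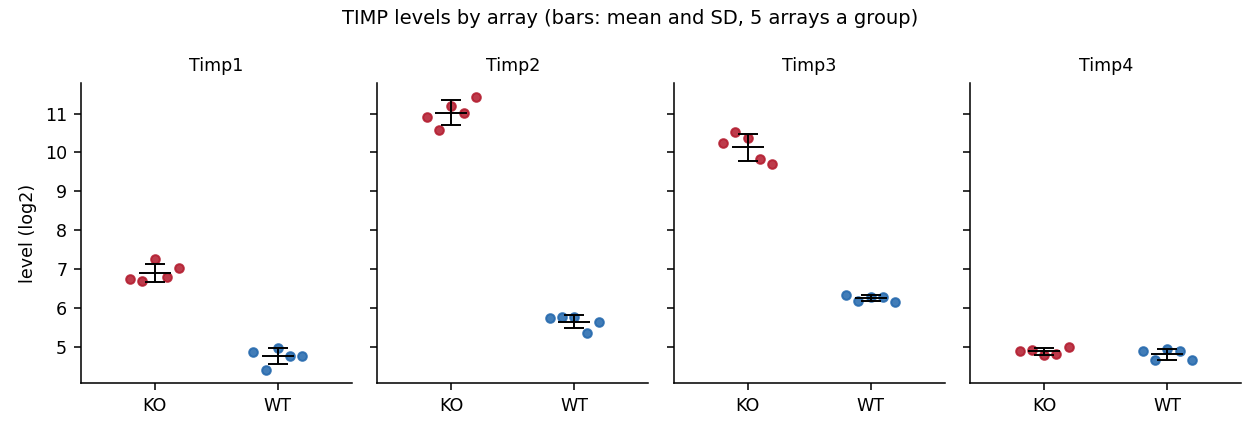
Levels of the 4 TIMP genes on the log2 scale, 1 point per array, KO left of WT, with the mean and SD of 5 arrays. Timp1, Timp2 and Timp3 do not overlap between groups, and Timp4 lies near 4.8 in both.

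The bases just before the RefSeq start sites are shown for the inhibitors and for the enzymes Mmp14 and Adamts1 to set the start regions of these genes side by side. Each line gives 120 bases, 5′ to 3′ on the gene's strand (RefSeq, GRCm38.p6), with CG pairs in capitals:
Timp1 (chrX:20870046-20870165, plus strand): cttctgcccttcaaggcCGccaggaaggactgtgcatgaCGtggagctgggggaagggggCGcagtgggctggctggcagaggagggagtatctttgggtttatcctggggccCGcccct
Timp2 (chr11:118355412-118355531, minus strand): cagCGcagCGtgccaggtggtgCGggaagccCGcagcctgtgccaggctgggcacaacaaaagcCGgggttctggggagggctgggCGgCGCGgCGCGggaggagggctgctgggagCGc
Timp3 (chr10:86300292-86300411, plus strand): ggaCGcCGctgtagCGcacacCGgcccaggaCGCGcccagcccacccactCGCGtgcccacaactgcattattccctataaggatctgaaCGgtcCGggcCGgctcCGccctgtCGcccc
Timp4 (chr6:115252206-115252325, minus strand): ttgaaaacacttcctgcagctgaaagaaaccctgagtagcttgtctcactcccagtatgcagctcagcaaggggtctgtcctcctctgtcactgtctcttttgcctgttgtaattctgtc
Mmp14 (chr14:54431478-54431597, plus strand): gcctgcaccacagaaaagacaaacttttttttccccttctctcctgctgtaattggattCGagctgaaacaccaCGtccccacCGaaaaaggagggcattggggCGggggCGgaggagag
Adamts1 (chr16:85803114-85803233, minus strand): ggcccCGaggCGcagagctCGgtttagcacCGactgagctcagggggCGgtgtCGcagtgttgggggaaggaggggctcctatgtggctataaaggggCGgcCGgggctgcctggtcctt

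Over the full 250 bases before the start, Timp2 held 21 CG pairs, Timp3 18, Adamts1 15, Mmp14 10, Timp1 6 and Timp4 2. The median of the 32851 promoters in the table was 6. Timp2 held more than 83.7% of all promoters and Timp3 more than 78.3%, while for Timp4 only 18.8% held fewer. These genes were chosen for display after their values were known, and the counts describe these windows only.

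Among the MMPs, 6 of 21 rose and 15 did not pass. Mmp14, a membrane-anchored collagenase that activates the Mmp2 precursor, was at 9.59, 8.56, 9.31, 9.90 and 9.92 in KO, against 5.73, 5.31, 5.41, 5.03 and 5.83 in WT. Every KO array was far above every WT array, with KO replicate 2 the lowest of its group. The rise was 3.99 ± 0.25 (standard error; limma, adjusted p = 3.04e-07). Of the 5 membrane-type MMPs measured it was the 1 that passed, and the other 4 changed by -0.26 to 0.11. Mmp21 and Mmp23, outside these classes, changed by -0.09 and -0.07 and did not pass.

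The gelatinases Mmp2 and Mmp9, which digest basement membrane collagen, did not pass. Mmp2, whose precursor Mmp14 and Timp2 bind together, was at 5.73, 5.90, 5.78, 5.91 and 5.46 in KO, against 6.12, 5.93, 6.04, 5.91 and 5.70 in WT. The groups overlapped, and the change was -0.18 with a 95% interval of -0.45 to 0.08 (limma, adjusted p = 0.299). Mmp9, a well-known NF-kB target in other cells, was at 5.23, 5.28, 5.31, 5.38 and 5.04 in KO, against 5.48, 5.75, 5.16, 5.41 and 5.47 in WT. Its groups overlapped as well, and the change was -0.21 with a 95% interval of -0.47 to 0.06 (limma, adjusted p = 0.25). On every array both gelatinases lay under the 95th percentile of the negative controls (7.17 to 7.77), so a change could be missed.

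Mmp7, or matrilysin, was at 11.78, 11.21, 10.65, 11.05 and 10.58 in KO, against 8.51, 7.64, 8.08, 7.81 and 8.01 in WT. The groups did not overlap, and the rise was 3.05 ± 0.23 (standard error), which is 8.26-fold (limma, adjusted p = 1.48e-06). Most of the Paneth cell list, chosen with earlier results of these data known, went the other way: 7 of its 8 genes fell (median change of the list -6.19). The remaining gene, Habp2, was higher by 1.39 and did not pass (limma, adjusted p = 0.0646). The summed level of that list off the log scale was 479 to 1697 in KO and 21243 to 25704 in WT. The highest KO sum came from KO replicate 4, where Habp2 was at 10.39, and without that array it was 1305. The higher Mmp7 signal was therefore measured in organoids with 7 of the 8 Paneth cell markers lower.

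The other MMPs that rose did so by smaller amounts and with wide spread among KO arrays. Mmp28, or epilysin, known from skin and gut epithelium, was at 8.03, 7.70, 8.57, 9.13 and 8.34 in KO, against 6.63, 6.83, 6.49, 7.22 and 6.85 in WT (rise 1.55, standard error 0.24; limma, adjusted p = 4.68e-04). Mmp11, or stromelysin 3, which furin activates inside the cell, was at 6.62, 6.02, 5.90, 6.65 and 7.44 in KO, against 4.91, 5.10, 4.94, 5.10 and 5.12 in WT (rise 1.50, standard error 0.25; limma, adjusted p = 6.98e-04). Neither gene overlapped between groups, and the WT mean of Mmp11 lay within the negative control medians, which makes its size a lower bound.

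Mmp13, the main collagenase of fibrillar collagen in mice, was at 6.50, 6.92, 5.66, 7.74 and 6.43 in KO, against 5.01, 5.40, 5.24, 5.52 and 5.27 in WT. The lowest KO array, replicate 3, stood just above the highest WT array, and the rise was 1.36 with a standard error of 0.30 (limma, adjusted p = 0.00544). Mmp19, an MMP of epithelium and vessels, was at 6.69, 5.36, 5.47, 6.98 and 7.76 in KO, against 5.39, 5.21, 5.17, 5.07 and 5.16 in WT. KO replicates 2 and 3 stood at the WT level and the other KO arrays above it. Its rise of 1.25 (standard error 0.39; limma, adjusted p = 0.0352) lost the call without KO replicate 1, 4 or 5 or without any 1 of the 5 WT arrays (limma, adjusted p = 0.0532 to 0.0860, changes of 0.93 to 1.30).

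**Figure D3:**
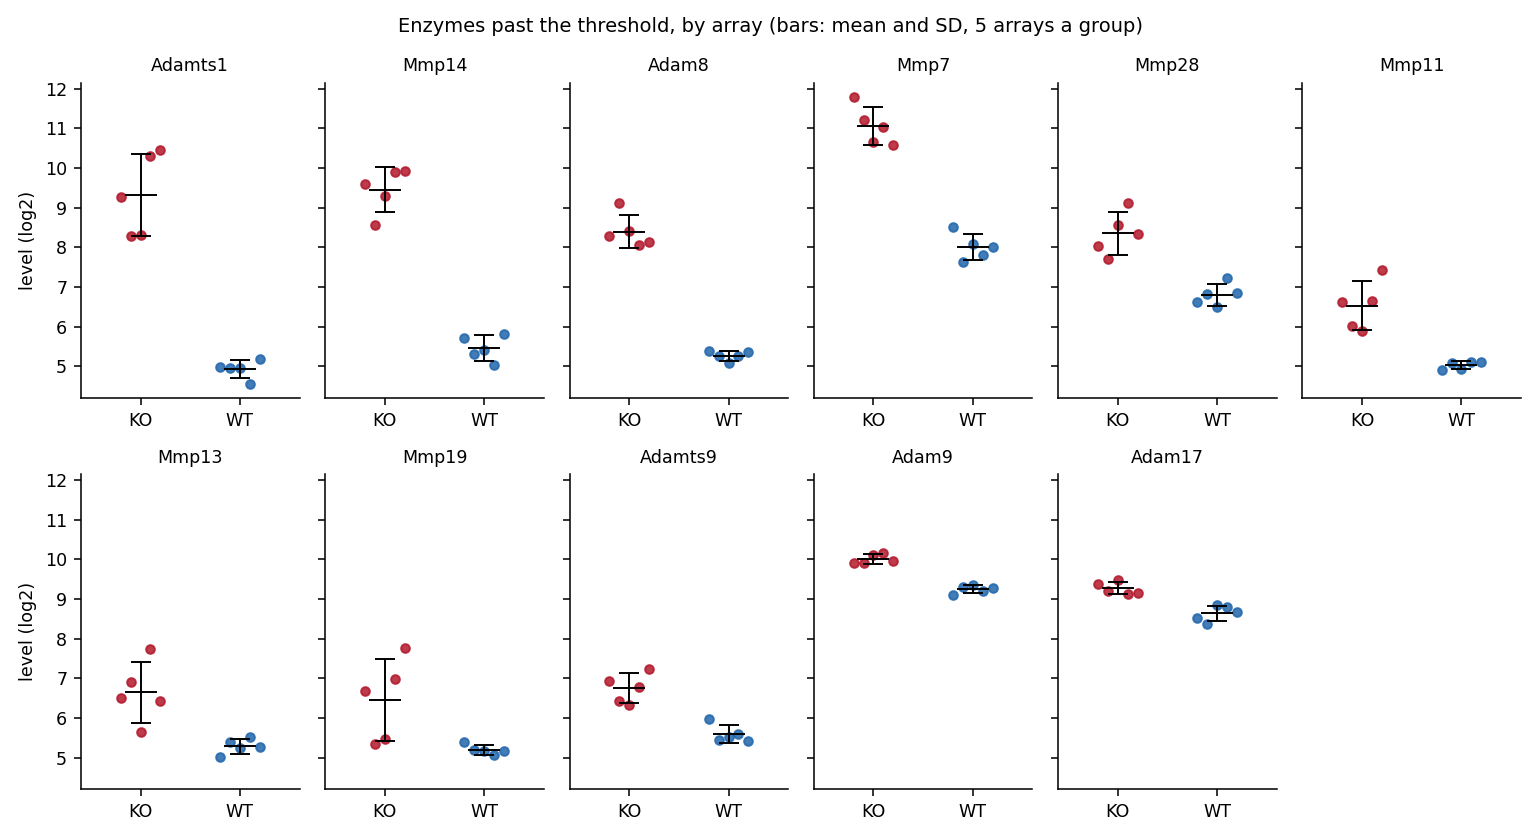
Levels of the 11 enzymes past the threshold on the log2 scale, 1 point per array, KO left of WT, with the mean and SD of 5 arrays. KO points spread more widely than WT points for most enzymes, and Mmp19 is the 1 whose groups overlap.

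A run of 10 neighbouring Mmp genes lies on chromosome 9 in RefSeq order, from Mmp13 through Mmp12, Mmp1b, Mmp3, Mmp1a, Mmp10, Mmp8, Mmp27 and Mmp20 to Mmp7. Mmp27 was not analysed here. Of the 9 measured, the genes at the ends, Mmp13 and Mmp7, rose. The 7 between them changed by -0.04 to 0.29 and did not pass (limma, adjusted p = 0.148 to 0.978). Their group means ran from 3.33 (Mmp1b in WT) to 5.81 (Mmp20 in KO). All lay under the 95th percentile of the negative controls (7.17 to 7.77), so a change in these 7 could be missed. They include the collagenases Mmp1a, Mmp1b and Mmp8, the stromelysins Mmp3 and Mmp10, the macrophage elastase Mmp12 and the enamel enzyme Mmp20. Among these 7, Mmp3 had the highest change, 0.29, with a 95% interval of -0.01 to 0.59.

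**Figure D4:**
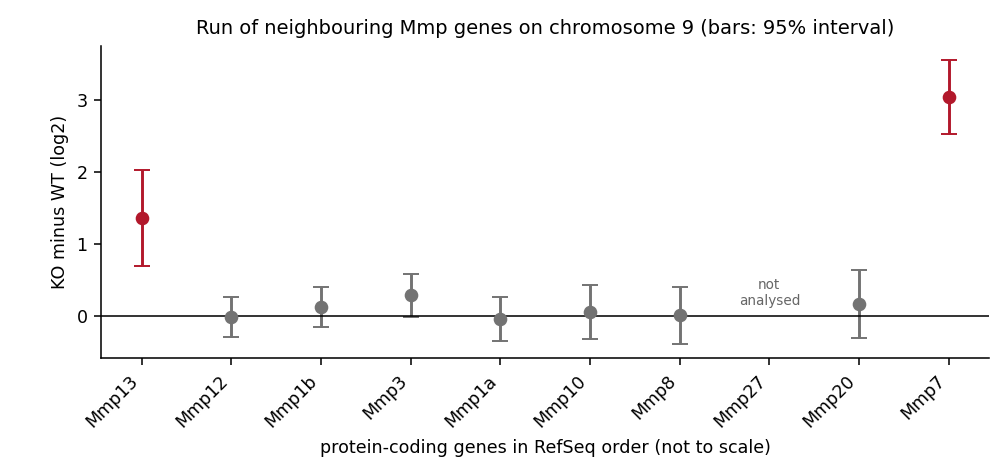
Change of neighbouring Mmp genes on chromosome 9, KO minus WT on the log2 scale, in RefSeq order and not to scale. Points are limma estimates with 95% intervals. The end genes Mmp13 and Mmp7 lie above 0, and the intervals of the 7 measured between them include 0.

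AP-1 sites are a classic feature of Mmp promoters, so the letters TGACTCA and TGAGTCA, which are each other's reverse complement and so cover both strands, were searched from 250 bases before to 50 after each RefSeq start. The motif was in the promoters of 5.95% of 27025 genes and of 10 of the 45 members with a promoter entry. Of these 10, 7 belong to the chromosome 9 run. Their windows are shown because genes that rose and genes that did not carry the same letters. Each line gives 47 bases, 5′ to 3′ on the gene's strand (RefSeq, GRCm38.p6), with the motif in capitals:
Mmp13 (chr9:7272459-7272505, plus strand): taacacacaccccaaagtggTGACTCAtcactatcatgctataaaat
Mmp12 (chr9:7347310-7347356, plus strand): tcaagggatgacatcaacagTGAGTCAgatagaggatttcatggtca
Mmp1b (chr9:7388093-7388139, minus strand): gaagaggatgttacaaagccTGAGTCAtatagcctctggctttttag
Mmp3 (chr9:7445756-7445802, plus strand): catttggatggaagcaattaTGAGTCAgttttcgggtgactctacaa
Mmp1a (chr9:7464048-7464094, plus strand): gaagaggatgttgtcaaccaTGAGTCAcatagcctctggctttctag
Mmp10 (chr9:7502259-7502305, plus strand): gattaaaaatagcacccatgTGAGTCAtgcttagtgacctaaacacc
Mmp7 (chr9:7692007-7692053, plus strand): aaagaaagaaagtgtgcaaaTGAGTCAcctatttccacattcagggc

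Of the 7 genes with these windows, Mmp13 and Mmp7 rose and Mmp12, Mmp1b, Mmp3, Mmp1a and Mmp10 did not pass. The group means of those that did not pass lay at or under the highest negative control median (5.10). Over all 12 members that rose and have a promoter entry, 2 held the AP-1 letters. The κB consensus was in 0 of these 12 and in 5.14% of all genes with an entry. The TEAD letters CATTCC or GGAATG were in 1 of the 12, Timp1, and in 16.6% of all genes. Motifs were searched separately and after the values were known, and a match is not a binding site.

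ADAMTS enzymes showed 1 large change. Adamts1, a secreted protease of versican and aggrecan, was at 9.28, 8.28, 8.32, 10.30 and 10.46 in KO, against 5.00, 4.97, 4.96, 4.57 and 5.19 in WT. All KO arrays were above all WT arrays, and KO replicates 4 and 5 were the highest. The rise was 4.39 ± 0.41 (standard error; limma, adjusted p = 7.43e-06), a lower bound because the WT mean lay within the negative control medians. Adamts5, which lies beside Adamts1 on chromosome 16 and cuts the same proteoglycans, changed by 0.18 with a 95% interval of -0.25 to 0.60. Its means, 4.78 in KO and 4.60 in WT, lay within the negative control medians, so a change could be missed.

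Adamts9, another versican-cutting member, was at 6.95, 6.43, 6.32, 6.79 and 7.25 in KO, against 5.97, 5.44, 5.52, 5.61 and 5.43 in WT. The groups did not overlap, and the rise was 1.16 with a standard error of 0.18 (limma, adjusted p = 5.00e-04). Of the 7 proteoglycan-cutting ADAMTS genes, these 2 rose and 5 did not pass, with changes of 0.07 to 0.35. None of the procollagen-processing Adamts3 and Adamts14 or of the 9 other ADAMTS genes passed, with changes of -0.10 to 0.51. The highest of those, Adamts7, was just outside the threshold with a change of 0.51 (standard error 0.18; limma, adjusted p = 0.0533) and was singled out because of it. It passed without KO replicate 2 or 3 (limma, adjusted p = 0.0181 and 0.0420).

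Of the 9 ADAMs known as proteases of body tissues, 3 rose. Adam8, a sheddase known from leukocytes and inflamed tissue, was at 8.28, 9.11, 8.41, 8.06 and 8.13 in KO, against 5.39, 5.26, 5.08, 5.26 and 5.35 in WT. The groups lay far apart, with KO replicate 2 the highest. The rise was 3.13 ± 0.18 (standard error; limma, adjusted p = 1.38e-07).

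Adam17, which releases TNF and ligands of the EGF receptor, was at 9.37, 9.20, 9.48, 9.14 and 9.16 in KO, against 8.53, 8.37, 8.84, 8.80 and 8.68 in WT. Its groups did not overlap, though the rise was small, 0.63 ± 0.12 (standard error), which is 1.54-fold (limma, adjusted p = 0.00210). Adam9, a broadly used sheddase, was at 9.91, 9.92, 10.11, 10.15 and 9.96 in KO, against 9.11, 9.30, 9.36, 9.20 and 9.27 in WT. This rise of 0.76 (standard error 0.10, 1.70-fold; limma, adjusted p = 8.91e-05) had the smallest standard error among the members that rose.

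Adam10, the protease that cuts Notch receptors and cadherins, was at 10.34, 10.34, 10.17, 10.58 and 10.47 in KO, against 10.20, 10.05, 10.28, 9.96 and 10.16 in WT. The groups overlapped, and the change of 0.25 did not pass (95% interval 0.02 to 0.49; limma, adjusted p = 0.112). Adam12 had KO values wholly above WT values but did not pass (change 0.87, standard error 0.31; limma, adjusted p = 0.0583), and it was picked for that. The other 4 of these ADAMs, Adam15, Adam19, Adam28 and Adam33, changed by 0.01 to 0.43 and did not pass. In Adam12, KO replicate 5 stood apart, and without that array the change was 0.52 and passed (limma, adjusted p = 0.0108), as it did at 1.003 without KO replicate 1 (limma, adjusted p = 0.0409). The remaining 23 ADAMs, mostly of germ cells and the nervous system, did not pass, with changes of -0.49 to 0.18. Many are close paralogs, and whether their probe sets share signal was not tested.

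Signal above the 95th percentile of the negative controls on every array of a group was seen for 11 members in KO and 5 in WT. The spread among KO arrays exceeded that among WT arrays in 13 of the 14 members that rose, and in 58.6% of all probe sets that rose. For 11 of the 14 the WT signal was not above that percentile on every array. Flattening of small signals can narrow the WT spread, and its part was not tested. KO replicate 5 had the highest KO value in 6 of the 14, and KO replicate 2 the lowest in 6. Over all probe sets that rose the corresponding shares were 40.5% and 33.9%, so the order of KO arrays was close to that of all probe sets that rose.

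Markers of cells that are known to make these proteins were read on the same arrays. Of 7 measured fibroblast markers none rose, 1, Lum, fell by 0.39 and 6 did not pass. Their summed level off the log scale was 331 to 409 in KO and 347 to 447 in WT, with Col3a1, Dcn and Lum at or under the negative control medians in both groups. None of 5 smooth muscle or 5 endothelial markers passed. Their summed levels were 170 to 474 and 127 to 164 in KO, and 168 to 195 and 137 to 154 in WT. The highest smooth muscle sum came from KO replicate 5, where Cnn1 was at 8.30 against 4.76 to 5.29 in the other 4 KO arrays, and without that array the highest KO sum was 193. Of 6 immune markers 2 rose, the macrophage receptor Csf1r by 1.53 and the integrin Itgam by 1.56, and 4 did not pass, among them the pan-leukocyte Ptprc (-0.21). The summed immune level was 313 to 614 in KO and 209 to 220 in WT. The highest sum came from KO replicate 1, where Itgam was at 8.37 against 6.14 to 6.64 in the other 4 KO arrays. Without that array the highest KO sum was 394, and Itgam still rose, by 1.15 (limma, adjusted p = 2.11e-04). The part of the immune signal in the rise of Adam8 and the MMPs was not tested.

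Genes that act with these enzymes were read from lists of activators, partners and substrates. Over all tested probe sets 15.0% rose and 11.7% fell, which is the background for the counts of these lists. The lists were chosen with earlier results of these data known, so their shares are descriptions only. Of 24 measured activators, receptors and non-TIMP inhibitors, 12 rose, 3 fell and 9 did not pass, with a median change of 0.33 against -0.01 over all probe sets. The urokinase gene Plau, whose product makes plasmin, rose by 4.11 (8.86 ± 0.65 in KO and 4.75 ± 0.16 in WT; SD, n = 5 each; limma, adjusted p = 3.04e-07), and its receptor Plaur by 3.76. The serpin Serpinb5, also called maspin, rose by 3.31. Pcsk5, a proprotein convertase, fell to 4.72 ± 0.35 in KO, against 9.89 ± 0.46 in WT (change -5.17; limma, adjusted p = 1.33e-08). The WT means of Plau and Serpinb5 and the KO mean of Pcsk5 lay within the negative control medians, so these 3 sizes are lower bounds.

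Of 10 genes for proteins that carry Adam10 or Adam17 to the cell surface, 5 rose, none fell (limma; 1 was lower at an unadjusted p under 0.05) and 5 did not pass. The iRhoms Rhbdf1 and Rhbdf2, which move Adam17 through the secretory pathway, rose by 1.56 and 1.002 (limma, adjusted p = 8.36e-07 and 6.73e-05). The tetraspanins Tspan14 and Tspan33, which bind Adam10, rose by 1.09 and 1.28.

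Of 29 measured shed substrates, 18 rose (62.1%), 2 fell (6.90%) and 9 did not pass, with a median of 0.78. The adhesion molecule Vcam1 rose by 4.48, the chemokine Cxcl16 by 3.63, the growth factor Ereg by 2.51 and Notch2 by 1.47. Those that fell, picked once their values were known, were L1cam (-1.36) and the Notch ligand Dll1 (-1.07). Dll1 lost its call with the replicate number as a block (limma, adjusted p = 0.107). The same held when any 1 array but KO replicate 1 or WT replicate 1 was left out, where limma's adjusted p ran from 0.0678 to 0.107.

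Of 33 matrix substrates, 14 rose (42.4%), 2 fell (6.06%) and 17 did not pass, with a median of 0.37. Fn1, or fibronectin, rose by 6.24, the laminin chains Lama3 and Lamb2 by 4.36 and 3.16, and thrombospondin Thbs1 by 4.18. Fbln1 and Nid2 changed by -3.19 and -1.51. They fell outside the naming rule and were picked once their values were known. The fibrillar collagens Col1a1 and Col3a1, substrates of Mmp13 and Mmp14, changed by -0.05 and 0.05 and did not pass.

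A separate metalloproteinase family, the astacins, moved in both directions, with 1 of 6 genes higher (16.7%) and 2 lower (33.3%). The brush border meprins Mep1a and Mep1b fell to 4.59 ± 0.32 and 4.30 ± 0.22 in KO, against 8.01 ± 1.55 and 9.36 ± 1.28 in WT (SD, n = 5 each; changes of -3.42 and -5.05; limma, adjusted p = 0.00112 and 1.14e-05). Both KO means lay within the negative control medians, so the sizes are lower bounds. In Mep1a, WT replicate 1 was at 5.26 against 8.40 to 9.06 in the other 4 WT arrays, and without it the change was -4.10 (limma, adjusted p = 8.44e-08). Bmp1, which trims procollagens, rose by 1.17 (limma, adjusted p = 0.0124), and Tll1, Tll2 and Astl did not pass, with changes of -0.25 to 0.08.

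**Figure D5:**
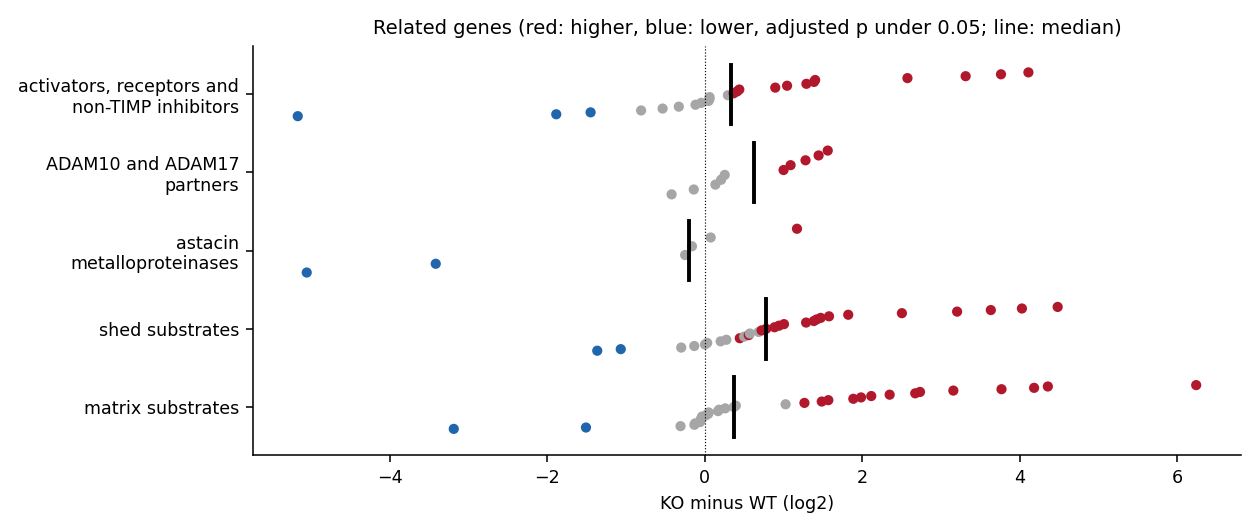
Changes of related genes, KO minus WT on the log2 scale, by list, with 1 point per gene. Red points rose and blue points fell (adjusted p under 0.05), grey points did not pass, and the black line is the list's median, highest for shed substrates at 0.78.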

How the data were processed

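Total RNA of 10 organoid samples was measured on 1 array each. The authors' deposited table holds log2 levels, 1 for each probe set and array. RMA and limma are named in the submitters' processing notes, without versions, genome build or whether all arrays were normalized together. Of 28846 probe sets, 6640 were controls, 19572 had 1 gene symbol in the platform table, 0 had several and 2634 are unnamed here. Levels were used as deposited, with no detection calls, and the number of arrays limits precision.

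KO and WT were compared with limma 3.58.1 (R 4.3.3), which fitted a linear model to every probe set and moderated the variances, with Benjamini-Hochberg adjustment over the 19572 named ones. A gene with several probe sets was read from the one with the highest mean. Members that passed, 11 fixed genes, Nfkbia and the 4 smallest p-values of each list of related genes were named. Other genes, cell type markers and collagens among them, were picked after their values were seen. The members and lists were chosen with earlier results of these data known. RefSeq tables (GRCm38.p6) gave chromosome, gene order and promoter sequence. The step was tested on simulated data over 19572 probe sets, with 50 changed at each size. It recovered 32.0% of changes of 0.5, 82.0% of 1, 96.0% of 2 and 98.0% of 4, with 6 false calls among 160. Far fewer probe sets were changed than the 26.7% that passed in the data, so these rates need not hold for the calls given here. Python 3.11.15, pandas 2.3.3 and matplotlib 3.10.9 made tables and figures. Alternatives are listed in the closing section.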

Additional observations from a re-analysis of the deposited data

Results flagged for a closer look

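Adam12, which encodes a membrane protease known from muscle and mesenchyme, had a level of 7.39 in KO replicate 5, against 5.48 to 5.92 in the other 4 KO arrays. It was marked because the gap to the nearest array was 0.77 of the range of the group. Without that array the change was 0.52 and passed (limma, adjusted p = 0.0108), against 0.87 with all arrays, which did not pass. It was the 1 such value among 46 groups of 5 arrays examined, and chance alone marks about 1 in 20, so 1 mark is no excess. Adam12 was itself added to these groups after its values were known. Cnn1 and Mep1a, which also had an array that stood apart, were not among these groups. The smooth muscle marker Cnn1 stood apart in the same array, at 8.30 against 4.76 to 5.29 in the other 4 KO arrays, and its part in the Adam12 value was not tested.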

How the results depend on the processing

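Alternatives were cyclic loess, centring on the 75th percentile, leaving out the dimmest 25% of probe sets, a trended and robust variance, array weights, the replicate number as a block, adjustment over all probe sets that are no controls, the mean of a gene's probe sets, and leaving out each array in turn. Leaving out control probe sets, or KO replicate 2 with WT replicate 4, was added after seeing the data. The count of members higher in KO was 14 to 17 under these and 13 to 16 with 1 array left out. The count lower in KO was 0 to 1 with 1 array left out (Adam21, -0.42, without WT replicate 5) and 0 otherwise. Mmp19 lost its call as described, and the other 13 kept theirs under all 20 alternatives. Adam12, Adamts7 and Adamts17 passed under 4, 6 and 3 of them. Shed substrates lower in KO numbered 1 with the replicate block, against 2, and 1 to 2 with 1 array left out, where Dll1 lost its call. With 1 array left out, Col1a1 changed by -0.11 to 0.0069 and Col3a1 by -0.013 to 0.093, turning sign without KO replicate 4 and never passing. The numbers of related genes were 48 to 52 higher and 8 to 11 lower. With the replicate block 15 members were higher. Same-numbered KO and WT arrays correlated at -0.07 to 0.36 in their deviations from the group means. KO arrays 3 and 4 alone correlated best with their own number. No label says whether the numbers pair the samples, and correlations of so few arrays cannot settle it.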

Other observations

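Some TIMP genes lie inside introns of synapsin genes, which encode proteins of nerve terminals, and these hosts were read after the TIMP values were known. Timp3 lies within Syn3, which was at 7.91 ± 0.46 in KO and 6.86 ± 0.32 in WT (SD, n = 5 each) and rose by 1.05 (limma, adjusted p = 0.00428). Timp1 lies within Syn1, which changed by -0.19 and did not pass (limma, adjusted p = 0.232). Timp4 lies within Syn2, which fell by 0.54 (a change of -0.54; limma, adjusted p = 0.00734) while Timp4 did not pass. Whether the probe sets of a host and its inner gene share signal was not tested.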
